A study of Mus musculus with 20 samples.

Results

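The genes described here encode the constant regions of mouse antibodies and the proteins that carry IgA across the gut wall. They are the heavy chain genes Igha, Ighm, Ighd, Ighg1, Ighg2b, Ighg2c and Ighg3, the κ light chain gene Igkc, the joining chain gene Jchain and the polymeric immunoglobulin receptor gene Pigr. They were chosen by name, as 10 of the 32991 genes for which expression could be summed, and all 10 passed the filter on low values in every comparison. RNA-seq was carried out on colon tissue of 20 male C57BL/6 mice, 5 in each of 4 groups, with 1 library per mouse. The question was which genes differ between colitis-associated cancer and healthy colon, and whether gavage with PZH (Pien Tze Huang), a formula used in China as a medicine, alters them.

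Mice of the Control group received double distilled water by gavage for 91 days and no carcinogen. Mice of the PZH group received PZH at 250 mg/kg/d over the same 91 days. Mice of the Model group received 1 injection of 12.5 mg/kg azoxymethane (AOM), which is a colon carcinogen, followed by cycles of 2% dextran sulfate sodium (DSS) in the drinking water, which injures the colon lining, and were given water by gavage. Mice of the Model + PZH group received AOM and DSS in the same way together with 250 mg/kg/d PZH. No mouse carried a transgene or a targeted allele. The pieces of colon were whole tissue, in which fewer cells of a type and less RNA per cell cannot be told apart.

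Most antibody made in the gut is IgA. Plasma cells beneath the epithelium assemble an α heavy chain (Igha) with a light chain, and a small joining chain (Jchain) links the units into polymers. The polymeric immunoglobulin receptor (Pigr) on the basal side of epithelial cells binds these polymers, moves them through the cell and releases them into the lumen. Polymeric IgM (Ighm) uses the same route. IgG has no joining chain and is the main class of the blood, while IgD (Ighd), together with the membrane form of IgM, is typical of resting B cells.

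The feature that sets IgA and IgM apart is printed here because Jchain and Pigr act on it. Both heavy chains end, in the secreted form, in a short tail that holds a cysteine to which the joining chain is bonded. The stretch below runs from the place where splicing to the membrane exons would start to the last codon before the stop, as read from GENCODE M21 transcripts on the minus strand of GRCm38. It is exonic and coding, and the capitals mark the codon of that penultimate cysteine.
Igha, secreted transcript, chr12:113258771-113258829: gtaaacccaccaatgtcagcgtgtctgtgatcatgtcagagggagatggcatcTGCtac
Ighm, secreted transcript, chr12:113420870-113420928: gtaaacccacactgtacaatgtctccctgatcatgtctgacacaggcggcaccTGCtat
These tails are 59 bases long and identical at 40 positions. In Ighg1, Ighg2b, Ighg2c and Ighg3 the same stretch is 5 bases long and holds no such codon. The deposited files list a secreted and a membrane transcript for each heavy chain gene, and only the secreted one carries this tail.

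The heavy chain genes lie together on chromosome 12, in the order Ighm (from 113418558), Ighd (from 113406604), Ighg3 (from 113356224), Ighg1 (from 113325240), Ighg2b (from 113302965), Ighg2c (from 113285325) and Igha (from 113254830), all on the minus strand. Igkc lies on chromosome 6 (70726435 to 70726966), Jchain on chromosome 5 (88519809 to 88527891) and Pigr on chromosome 1 (130826684 to 130852249). Values are FPKM, fragments per kilobase of transcript scaled to the depth of the library, summed over the annotated transcripts of a gene, so that levels of different genes can be set beside each other per length. Differences are of mean log2(FPKM + 1), with a standard error (SE) from limma, and a gene was called at a Benjamini-Hochberg adjusted P under 0.05 over all genes tested.

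Depth read from the step size of low values was 15.3 to 19.4 M fragments per mouse. The tissue label was borne out by colon epithelial genes, with Vil1 at 157 to 274 FPKM and Cdh1 at 215 to 311 FPKM in the 20 mice. Some genes were listed near 0 in mice where their tissue was plainly present. Epcam, an epithelial adhesion gene, was listed at 0 in 13 mice, the 5 Control mice among them. The 22252 assembled transcripts without a gene name entered no sum. Control mice 17 and 50 also stood apart. The summed level of 8 genes of stratified epithelium, such as Krt13, was 462 and 355 FPKM in these mice and 0.904 to 2.22 FPKM in the other 3 Control mice. It was 0.430 to 1.78 FPKM in PZH, 11.7 to 35.8 FPKM in Model and 2.52 to 63.5 FPKM in Model + PZH mice. Some calls were lost without Control mice 17 and 50, an alternative chosen after seeing the data. For the heavy chain genes, Igkc, Jchain and Pigr these losses are given beside the values. Those of Igha, Igkc, Ighg2b and Ighg2c stand with the counts of calls between Model + PZH and Control mice. Between Model and Control mice, the called genes of the gene lists used below numbered 58 with all mice and 42 without Control mice 17 and 50. Which calls were lost there is not marked, so a call of any other gene in that comparison may not hold without these mice.

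Igha, the α heavy chain, was among the most abundant transcripts of the colon and was higher in both AOM/DSS groups. It was listed at 1358, 1667, 2181, 1811 and 1028 FPKM in Control mice 17, 37, 41, 48 and 50. In PZH mice 8, 14, 27, 46 and 53 it was at 1585, 2393, 1582, 1807 and 2422 FPKM. In Model mice 23, 30, 33, 44 and 52 it reached 3193, 5270.2, 7860, 3523 and 4348 FPKM, so every Model mouse lay above every Control and PZH mouse. Model + PZH mice 2, 13, 15, 35 and 36 had 4634, 4229, 4175, 4239.65 and 4333 FPKM. The mean was 1609 ± 439 FPKM in Control and 4839 ± 1870 FPKM in Model mice (SD, n = 5 per group), 3.01 times as high, and the log2 difference was 1.56 (SE 0.27, limma adjusted P = 0.00258). Model + PZH mice exceeded Control mice by 1.47 (SE 0.20, adjusted P = 0.0119) and PZH mice by 1.17 (SE 0.16, adjusted P = 0.0128) on this scale. The coefficient of variation was 38.7% in the Model and 4.24% in the Model + PZH group, a description of 5 values each.

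**Figure D1:**
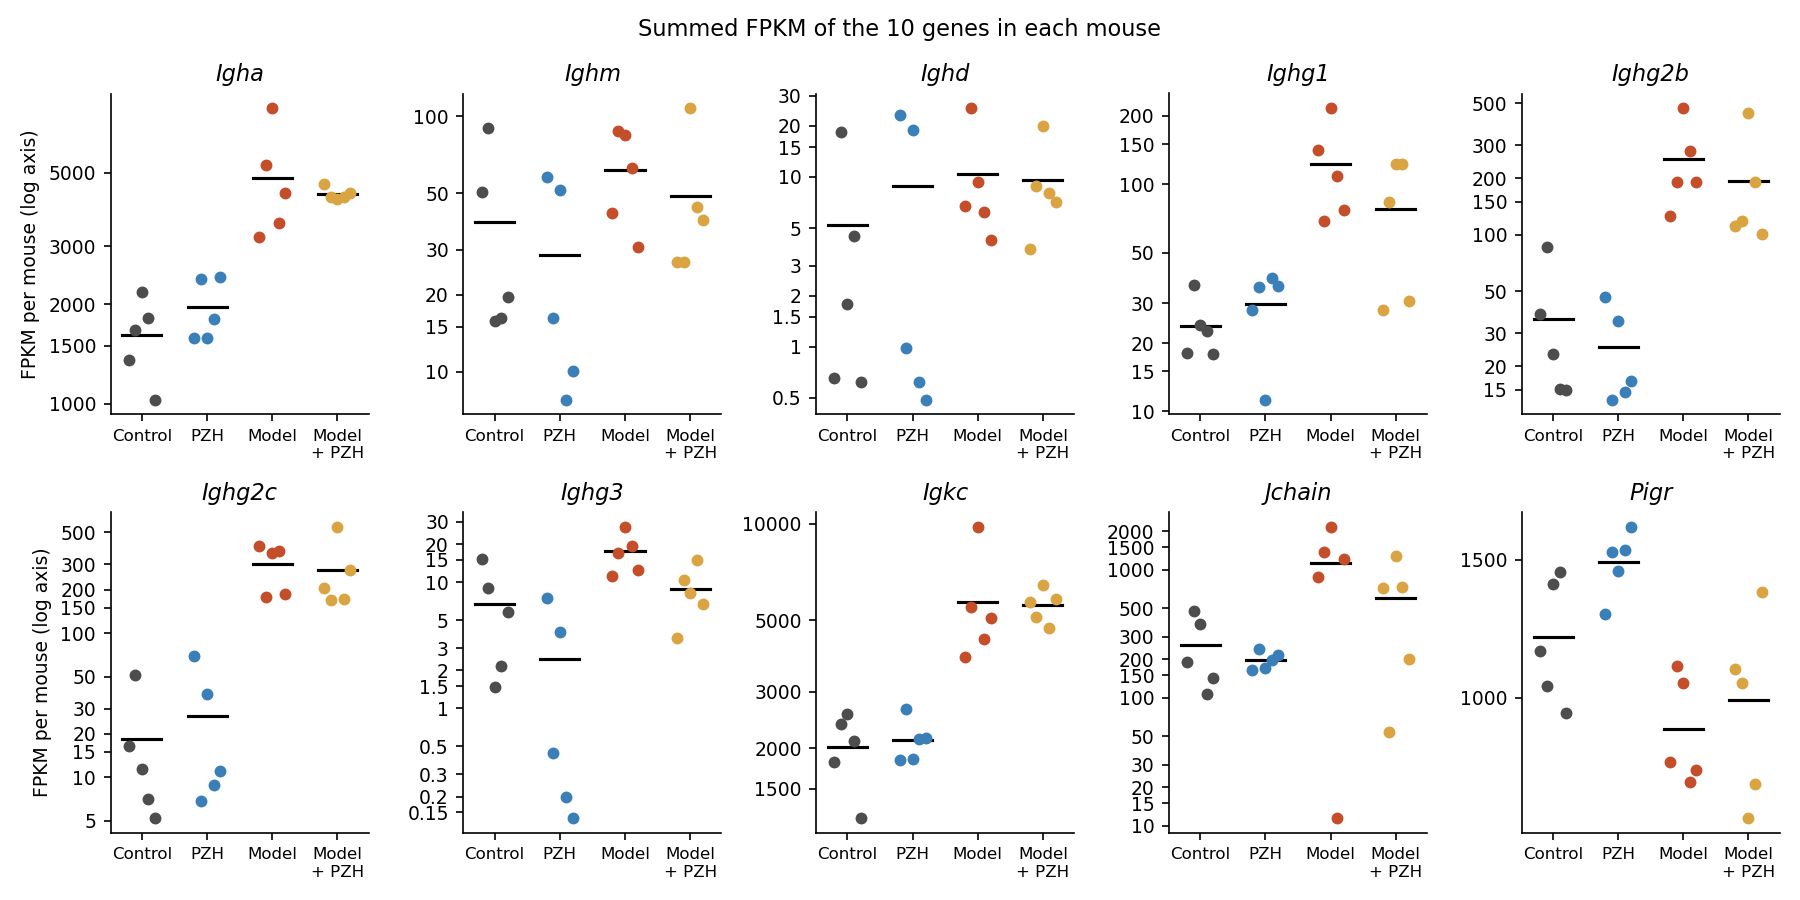
Each point is the summed FPKM of a gene in 1 mouse, on a log axis, by group (Control grey, PZH blue, Model red, Model + PZH yellow, 5 mice each), and the black line is the group mean. For Igha, Igkc, Ighg2b and Ighg2c all Model and Model + PZH mice lie above all Control and PZH mice, and for Jchain 1 Model mouse lies at 11.5 FPKM, below every other mouse.

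Igkc, the constant region of the κ light chains that most mouse antibodies carry, followed Igha. It was listed at 1814, 2386, 2560.3, 2111 and 1213 FPKM in Control mice 17, 37, 41, 48 and 50, and at 1843 to 2651 FPKM in PZH mice. In Model mice 23, 30, 33, 44 and 52 it was at 3846, 5493, 9787, 4369 and 5099 FPKM, and in Model + PZH mice at 4728 to 6448 FPKM, again with no overlap between mice with and without AOM/DSS. The log2 difference between Model and Control was 1.47 (SE 0.28, adjusted P = 0.00394), and that between Model + PZH and PZH 1.39 (SE 0.15, adjusted P = 0.00733). The ratio of Igkc to the summed heavy chain genes stayed between 0.866 and 1.22 in the 20 mice. Model mouse 33 was the highest of all mice for Igha, Igkc, Jchain, Ighg1, Ighg2b and Ighg3.

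In Model against Control mice, 6 of the 10 genes were called and all 6 were higher, namely Igha, Ighg1, Ighg2b, Ighg2c, Ighg3 and Igkc. Among the 15812 genes tested, 16.4% were called higher and 23.6% were called in either direction. In 5 of the 6, all but Ighg3, every Model mouse exceeded every Control mouse, which held for 13% of all genes tested. The median log2 difference of the 10 genes was 1.498, beside 0.09 for all genes tested. The same 6 genes were called without Control mice 17 and 50.

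**Figure D2:**
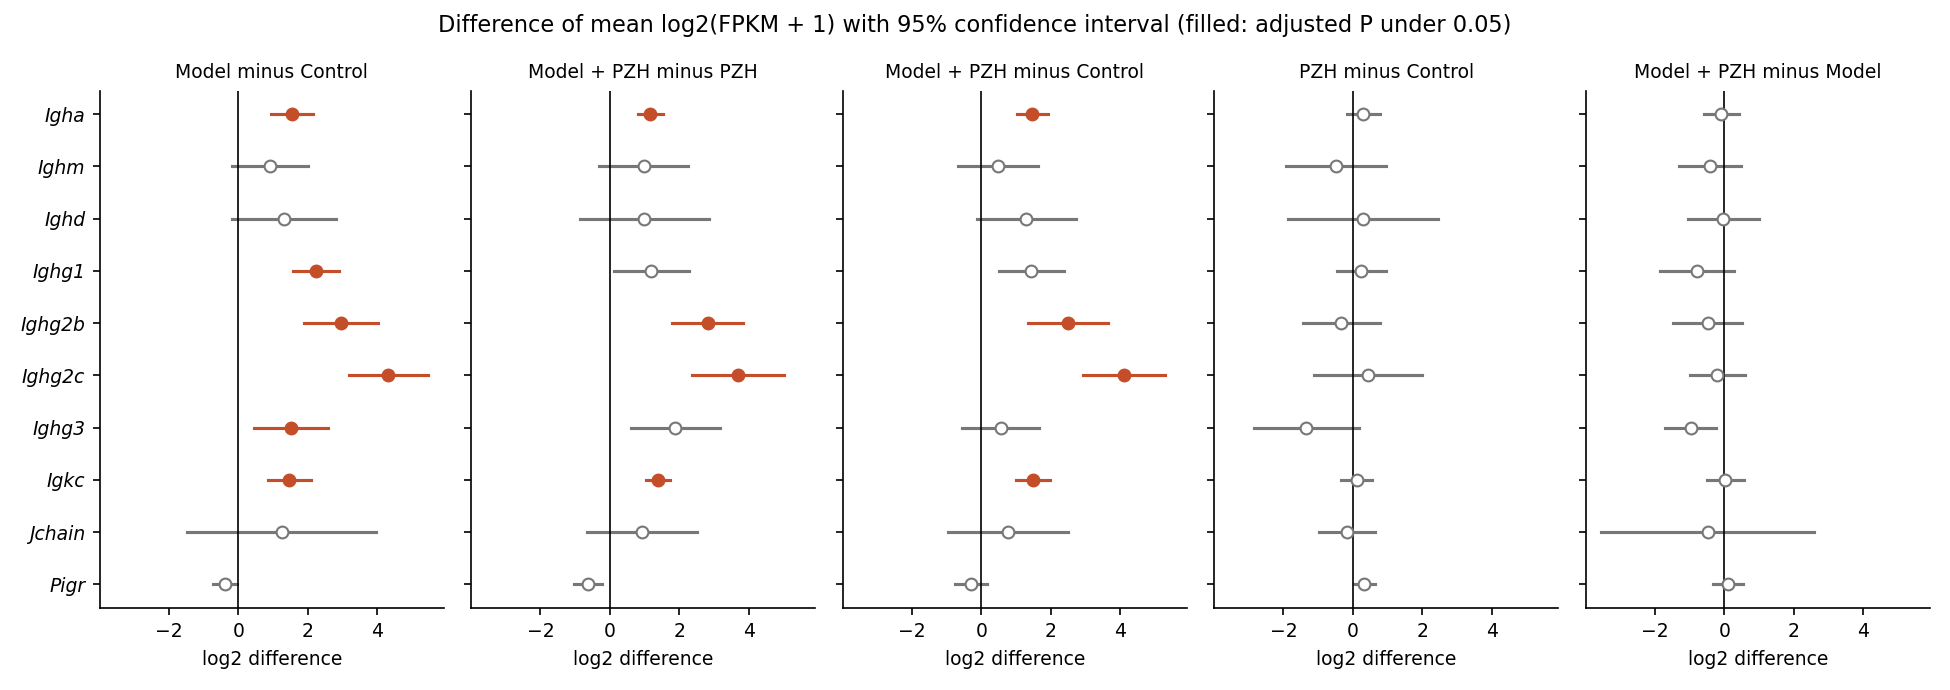
Each point is a difference in mean log2(FPKM + 1) between groups of 5 mice, with its 95% confidence interval from limma, and filled red points have an adjusted P under 0.05. The 6 called genes between Model and Control range from 1.47 (Igkc) to 4.32 (Ighg2c), while no point is filled for PZH against Control or for Model + PZH against Model.

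Jchain, the joining chain, was higher in most mice with AOM/DSS, and the test turned on Model mouse 44. It was listed at 189.8, 473, 375, 108 and 143 FPKM in Control mice 17, 37, 41, 48 and 50, and at 164 to 238 FPKM in PZH mice. Model mice 23, 30, 33 and 52 had 874, 1385, 2171 and 1219 FPKM, above every Control mouse, whereas Model mouse 44 had 11.5 FPKM, below every Control mouse. Model + PZH mice 2, 13, 15, 35 and 36 had 726, 54.0, 1287, 728 and 199.5 FPKM and overlapped with the Control mice. With all mice the log2 difference between Model and Control was 1.25 (SE 1.23, adjusted P = 0.512). Without Model mouse 44 it was 2.60 (SE 0.45, adjusted P = 0.00499).

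The low Jchain values did not come with low IgA. In Model mouse 44 Jchain was at 0.326% of the Igha level and in Model + PZH mouse 13 at 1.28%, against 4.604% to 30.8% in the other 18 mice. Igha itself was at 3523 and 4229 FPKM in these mice, within the range of their groups. Jchain has a coding transcript and one that retains an intron. The retained-intron transcript made up 44.8% of the gene in Model mouse 44 and 16.2% in Model + PZH mouse 13, and 0.383% to 5.81% in the others. The coding transcript was listed at 6.35 and 45.2 FPKM in the same mice, lower than in any other mouse. Assembled transcripts without a gene name entered no sum, and whether they hold Jchain reads of these mice was not tested, so the 11.5 and 54.0 FPKM are levels as listed and may not be all of the Jchain RNA.

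**Figure D3:**
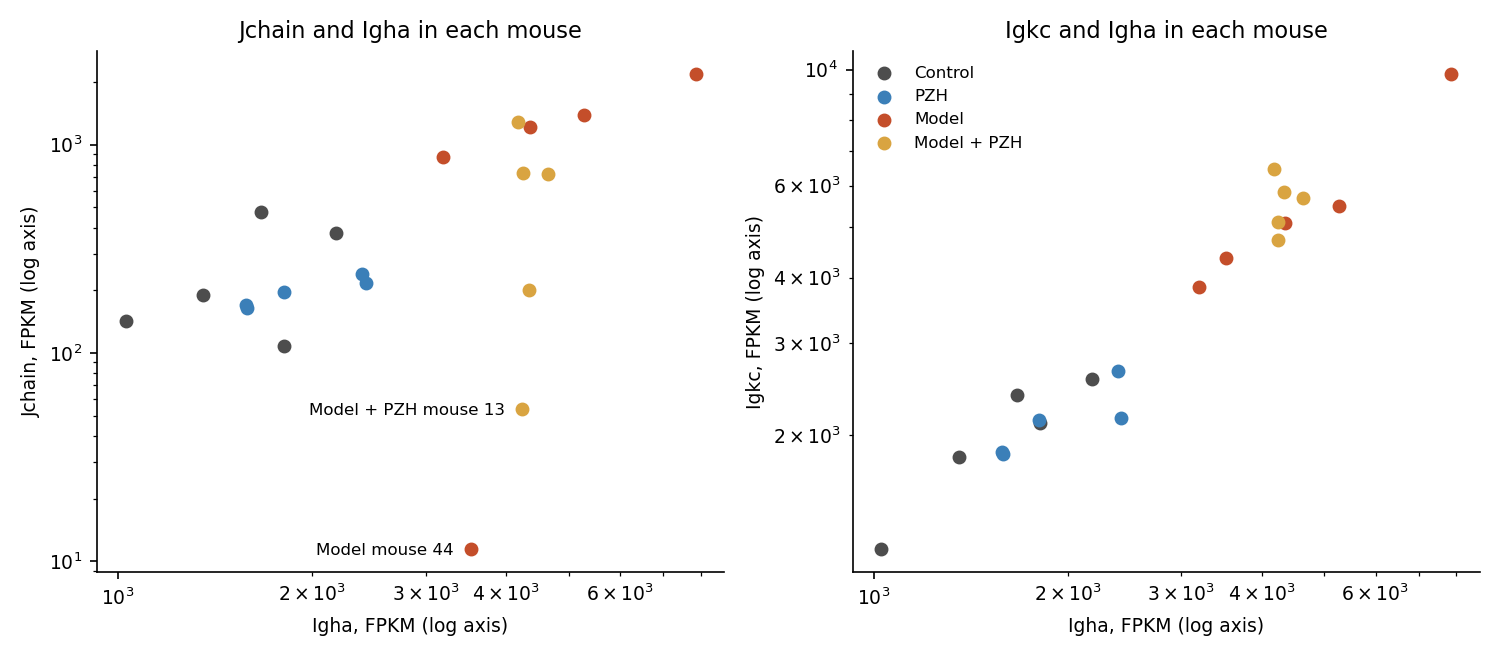
Each point is 1 mouse (Control grey, PZH blue, Model red, Model + PZH yellow), with the FPKM of Igha on the horizontal and of Jchain (left) or Igkc (right) on the vertical axis, both logarithmic. Igkc lies close to a single line with Igha over the 20 mice, while Jchain is at 11.5 FPKM in Model mouse 44 and 54.0 FPKM in Model + PZH mouse 13.

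Pigr, the epithelial receptor that exports IgA and IgM, did not rise with its cargo. It was listed at 1147, 1035, 1397, 1449 and 956 FPKM in Control mice 17, 37, 41, 48 and 50. PZH mice 8, 14, 27, 46 and 53 had 1278, 1536, 1452, 1544 and 1655 FPKM. Model mice 23, 30, 33, 44 and 52 had 828, 1099, 1045, 780.2 and 808 FPKM, of which 3 lay below the lowest Control mouse and 2 within the Control range. Model + PZH mice 2, 13, 15, 35 and 36 had 1087, 1043, 701, 775 and 1365 FPKM, with mouse 36 inside the range of the PZH group and the other 4 below it. The log2 difference between Model and Control was -0.39 (SE 0.16, 95% confidence interval -0.74 to -0.04, adjusted P = 0.101) and did not pass the threshold. Between Model + PZH and PZH it was -0.62 (SE 0.18, adjusted P = 0.0941). It was -0.29 (SE 0.21, adjusted P = 0.457) between Model + PZH and Control. The Pigr difference between Model + PZH and PZH passed the threshold when all 20 mice shared one estimate of spread (adjusted P = 0.0363), and that between Model and Control did with a quality weight per mouse (adjusted P = 0.0471).

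The levels of cargo and receptor thus came apart. Igha was at 1.07 to 1.61 times the FPKM of Pigr in Control mice and at 1.09 to 1.56 times in PZH mice. In Model mice it was at 3.86 to 7.52 times and in Model + PZH mice at 3.17 to 5.95 times, with no overlap between mice with and without AOM/DSS.

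Some epithelial genes were lower in Model than in Control mice, a comparison in which Pigr was not called. Of the 8 genes of the colonocyte list, 7 were called lower, beside 1143 of all 15812 genes tested. They were led by Slc26a3 (log2 difference -2.39), Aqp8 (-2.36) and Car1 (-2.21), which encode a chloride and bicarbonate exchanger, a water channel and a carbonic anhydrase. Of 11 general colon epithelial genes tested, 3 were lower, namely Krt19 (-0.75), Lgals4 (-0.63) and Cdx1 (-0.62), and none was higher. The summed level of the 12 genes of that list was 4625 to 8500 FPKM in Control, 4603 to 7518 FPKM in PZH, 3549 to 6906 FPKM in Model and 4010 to 7037 FPKM in Model + PZH mice. These sums lean on Krt8, listed at 3071 FPKM in Control mouse 48 and 0.105 FPKM in Control mouse 50, and on Epcam, listed at 0 in 13 mice. They are therefore a poor measure of epithelial content.

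Pigr was also compared relative to this list, as log2(FPKM + 1) of Pigr minus the mean of the list. The relative level was lower by 0.85 in Model + PZH than in Control mice (exact two-sided permutation test, P = 0.0159, adjusted P = 0.0397 over 5 comparisons). Against PZH mice it was lower by 1.01 (P = 0.00794 by the same exact test, adjusted P = 0.0397), and no lower P can be had from groups of 5 mice. The call against Control mice was lost without Control mice 17 and 50 (-0.67, exact permutation test, adjusted P = 0.268), with the median of the list (-0.32, exact permutation test, adjusted P = 0.119) and without any 1 of Control mice 17, 37, 41 and 50 (exact permutation test, adjusted P = 0.0714 in each). Between Model and Control mice the difference was -0.76 (exact two-sided permutation test, P = 0.111, adjusted P = 0.185), and -1.06 without Model mouse 30 (exact permutation test, adjusted P = 0.0317). These values lean on Epcam and Krt8, which are at 0 or near 0 in many mice. With only the 10 list genes that reached 0.5 FPKM in every mouse, a setting chosen after seeing the data, the differences were -0.21 (exact permutation test, adjusted P = 0.317), -0.47 (exact permutation test, adjusted P = 0.0794) and -0.14 (exact permutation test, adjusted P = 0.317) in the same order. With those 10 genes, the relative level in PZH mice was 0.26 above that of Control mice (exact permutation test, adjusted P = 0.0397).

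Among 20 tested genes for transcytosis and for regulation of the receptor, 3 were higher and 2 lower in Model than in Control mice, a share near the 23.6% of all genes called in that comparison. Tnf (log2 difference 1.91, adjusted P = 0.000588) and Nfkb1 (0.63, adjusted P = 0.00695), a cytokine and a transcription factor subunit known to drive Pigr transcription, were higher, and so was Usf2 (0.36). Hnf4a, an epithelial transcription factor, fell by 0.71 (adjusted P = 0.0109) and Rab25, a small GTPase of recycling endosomes, fell by 0.49 (adjusted P = 0.00847). None of these genes was called in the other comparisons of mice with and without AOM/DSS, where limma gave 5 (against Control) and 8 (against PZH) at an unadjusted P under 0.05, beside 3256 of 15616 and 3268 of 15636 genes tested.

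Ighg2c, Ighg2b and Ighg1 had the largest log2 differences of the 10 genes between Model and Control mice, while that of Ighg3 was below that of Igha. IgG is scarce in healthy gut mucosa, and Ighg2c is the form of C57BL/6 mice that corresponds to IgG2a of other strains. Ighg2c was listed at 16.5, 51.5, 11.4, 7.05 and 5.20 FPKM in Control mice 17, 37, 41, 48 and 50. PZH mice 8, 14, 27, 46 and 53 had 69.5, 6.88, 37.7, 8.84 and 11.1 FPKM. Model mice 23, 30, 33, 44 and 52 had 401, 178, 363, 372 and 188 FPKM, and Model + PZH mice 2, 13, 15, 35 and 36 had 206, 169, 549.6, 172 and 275 FPKM. The lowest mouse with AOM/DSS, at 169 FPKM, thus lay well above the highest mouse without it, at 69.5 FPKM. The mean was 18.3 ± 19.1 FPKM in Control and 300.2 ± 108 FPKM in Model mice (SD, n = 5 per group), 16.4 times as high, with a log2 difference of 4.32 (SE 0.52, adjusted P = 0.000260). Model + PZH mice exceeded Control mice by 4.12 (SE 0.54, adjusted P = 0.0103) and PZH mice by 3.69 (SE 0.60, adjusted P = 0.0206).

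Ighg2b was listed at 38.0, 86.3, 23.2, 15.1 and 14.9 FPKM in Control mice 17, 37, 41, 48 and 50. Model mice 23, 30, 33, 44 and 52 had 126, 191, 472, 278 and 192 FPKM. PZH mice ranged from 13.3 to 46.8 FPKM and Model + PZH mice from 101 to 446 FPKM, so that here too no mouse with AOM/DSS overlapped with one without. The log2 difference was 2.97 between Model and Control (SE 0.49, adjusted P = 0.00176), 2.49 between Model + PZH and Control (SE 0.52, adjusted P = 0.0368) and 2.82 between Model + PZH and PZH (SE 0.46, adjusted P = 0.0206).

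Ighg1 was listed at 18.01, 36.2, 24.1, 22.6 and 17.9 FPKM in Control mice 17, 37, 41, 48 and 50. Model mice 23, 30, 33, 44 and 52 had 141, 69.2, 216, 109 and 77.1 FPKM, all above the Control mice (log2 difference 2.24, SE 0.31, adjusted P = 0.000588). Model + PZH mice 2, 13, 15, 35 and 36 had 27.9, 83.2, 122, 123.07 and 30.7 FPKM, so mice 2 and 36 lay within the Control range and the other 3 within the Model range. Ighg1 was not called in Model + PZH against Control (log2 difference 1.45, SE 0.43, adjusted P = 0.0955) or against PZH mice (1.20, SE 0.49, adjusted P = 0.194). With all 20 mice in one fit, Ighg1 was called against Control mice (adjusted P = 0.0424).

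Ighg3 was the lowest of the IgG genes in mice with AOM/DSS. It was listed at 15.2, 8.94, 1.48, 2.16 and 5.80 FPKM in Control mice 17, 37, 41, 48 and 50, and at 11.1, 17.1, 27.5, 19.4 and 12.5 FPKM in Model mice 23, 30, 33, 44 and 52. Control mouse 17 lay above 2 Model mice. The log2 difference of 1.53 (SE 0.48, adjusted P = 0.0417) was lost when any of 8 of the 10 mice was left out, with an adjusted P of up to 0.0928. In the PZH group Ighg3 was at 7.43, 0.444, 4.06, 0.200 and 0.135 FPKM in mice 8, 14, 27, 46 and 53, and 3.58 to 14.97 FPKM in the Model + PZH group.

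In Model + PZH against PZH mice, 4 of the 10 genes were called higher, namely Igha, Ighg2b, Ighg2c and Igkc, beside 1.74% of the 15636 genes tested and 2.42% called in either direction. All 4 were without overlap, beside 5% of genes. Without PZH mouse 53, only Igha and Igkc were called, and Ighg2b and Ighg2c had adjusted P of 0.0622 and 0.0598. Without Model + PZH mouse 15, Ighg2c had an adjusted P of 0.0509. In Model + PZH against Control mice, the same 4 were called higher, beside 1.55% of the 15616 genes tested and 2.42% called in either direction, and were without overlap, beside 4.18% of genes. Without Control mice 17 and 50, none of the 4 was called in this comparison by limma (adjusted P = 0.0501 to 0.144), while 5 of the 10 genes had an unadjusted P under 0.05, beside 2320 of the 15180 genes tested, and the log2 differences were 1.20 for Igha, 1.24 for Igkc, 2.33 for Ighg2b and 3.83 for Ighg2c. That fit called 29 genes in all, against 378 with all mice. Ighg2b was also lost when any of 7 of the 10 mice was left out, with an adjusted P of up to 0.0893. The comparisons share the Model + PZH mice and are not independent of each other.

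Within the heavy chain total, the IgG share was higher in mice with AOM/DSS than in most mice without. Igha made up 85.1% to 96.6% of the summed FPKM of the 7 heavy chain genes in Control mice and 80.6% to 90.3% in Model mice. The 4 IgG genes made up 2.50% to 9.34% in Control, 2.27% to 8.35% in PZH, 7.79% to 17.8% in Model and 6.94% to 20.8% in Model + PZH mice. Their sum was 43.8 to 183 FPKM in Control and 455 to 1078 FPKM in Model mice, and 55.9 to 152 FPKM in PZH and 348 to 1127 FPKM in Model + PZH mice. The makeup of IgG differed too. Ighg2c accounted for 11.9% to 28.2% of the IgG sum in Control and 33.7% to 59.1% in Model mice, without overlap. PZH mice, at 12.3% to 45.8%, overlapped with both, and Model + PZH mice were at 34.2% to 66.5%. Ighg1 accounted for 19.8% to 48.1% in Control and 14.003% to 20.8% in Model mice. These shares are descriptions, with no test.

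**Figure D4:**
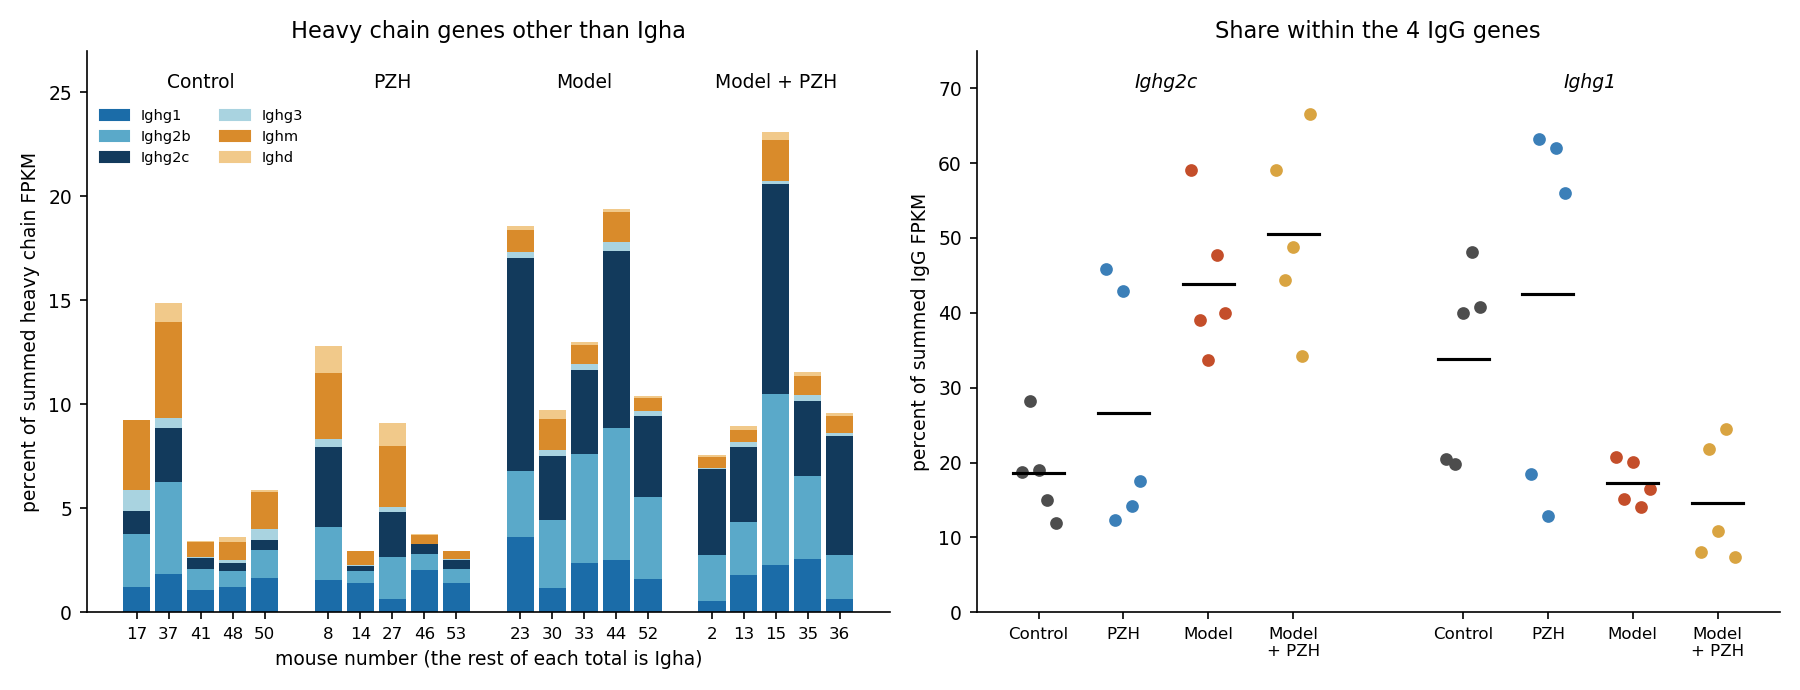
Left, stacked bars give the percent of the summed FPKM of 7 heavy chain genes held by each gene other than Igha, 1 bar per mouse. Right, points give the percent of the summed IgG FPKM in Ighg2c and Ighg1 per mouse, with the group mean as a line (Control grey, PZH blue, Model red, Model + PZH yellow), and Ighg2c lies at 11.9% to 28.2% in Control and 33.7% to 59.1% in Model mice.

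Ighm and Ighd, the heavy chains of IgM and IgD, varied more between mice of a group than between groups. Ighd was listed at 0.656, 18.4, 1.79, 4.49 and 0.623 FPKM in Control mice 17, 37, 41, 48 and 50, and at 23.1, 0.989, 18.9, 0.617 and 0.488 FPKM in PZH mice 8, 14, 27, 46 and 53. Model mice 23, 30, 33, 44 and 52 had 6.76, 25.4, 9.31, 6.18 and 4.27 FPKM, and Model + PZH mice 2, 13, 15, 35 and 36 had 3.78, 8.87, 19.9, 8.09 and 7.10 FPKM. One Control and 2 PZH mice were thus near the highest mice with AOM/DSS, and the remaining 7 mice without AOM/DSS were at 4.49 FPKM or less. The log2 difference between Model and Control was 1.33 (SE 0.68, adjusted P = 0.187), and 1.92 (SE 0.50, adjusted P = 0.0235) without Control mouse 37. Without Control mice 17 and 50, the lowest of their group for Ighd, it was 0.52 (adjusted P = 0.646).

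Ighm was listed at 50.3, 90.1, 15.8, 16.2 and 19.6 FPKM in Control mice 17, 37, 41, 48 and 50, and at 57.6, 16.2, 51.4, 7.79 and 10.1 FPKM in PZH mice 8, 14, 27, 46 and 53. It was at 30.7 to 87.2 FPKM in Model and 26.8 to 107 FPKM in Model + PZH mice. Its log2 difference between Model and Control was 0.91 (SE 0.49, adjusted P = 0.215), and 1.301 (SE 0.40, adjusted P = 0.0450) without Control mouse 37.

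The mice with high Ighd were those with high B cell genes. The summed level of 12 B cell genes was 109 FPKM in Control mouse 37, 93.7 FPKM in PZH mouse 8 and 80.1 FPKM in PZH mouse 27, and 8.51 to 28.3 FPKM in the other 7 mice without AOM/DSS. It was 38.3 to 115 FPKM in Model and 37.2 to 94.3 FPKM in Model + PZH mice, highest in Model mouse 30 and Model + PZH mouse 15, which were also the highest of their groups for Ighd. Ms4a1, which encodes the B cell surface protein CD20, was at 11.4, 8.51 and 6.89 FPKM in Control mouse 37 and PZH mice 8 and 27. Cr2 and Fcer2a, complement and IgE receptors of mature B cells, were at 5.11, 4.41 and 4.36 FPKM and at 4.46, 6.92 and 4.78 FPKM in the same mice. Of the 12 genes, 2 were called higher in Model than in Control mice, a share near the 16.4% of all genes, and Pax5, a transcription factor of B cells, was among them (log2 difference 0.92, adjusted P = 0.0495). The part of the B cell content of each piece of colon in the Ighd and Ighm values was not tested.

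**Figure D5:**
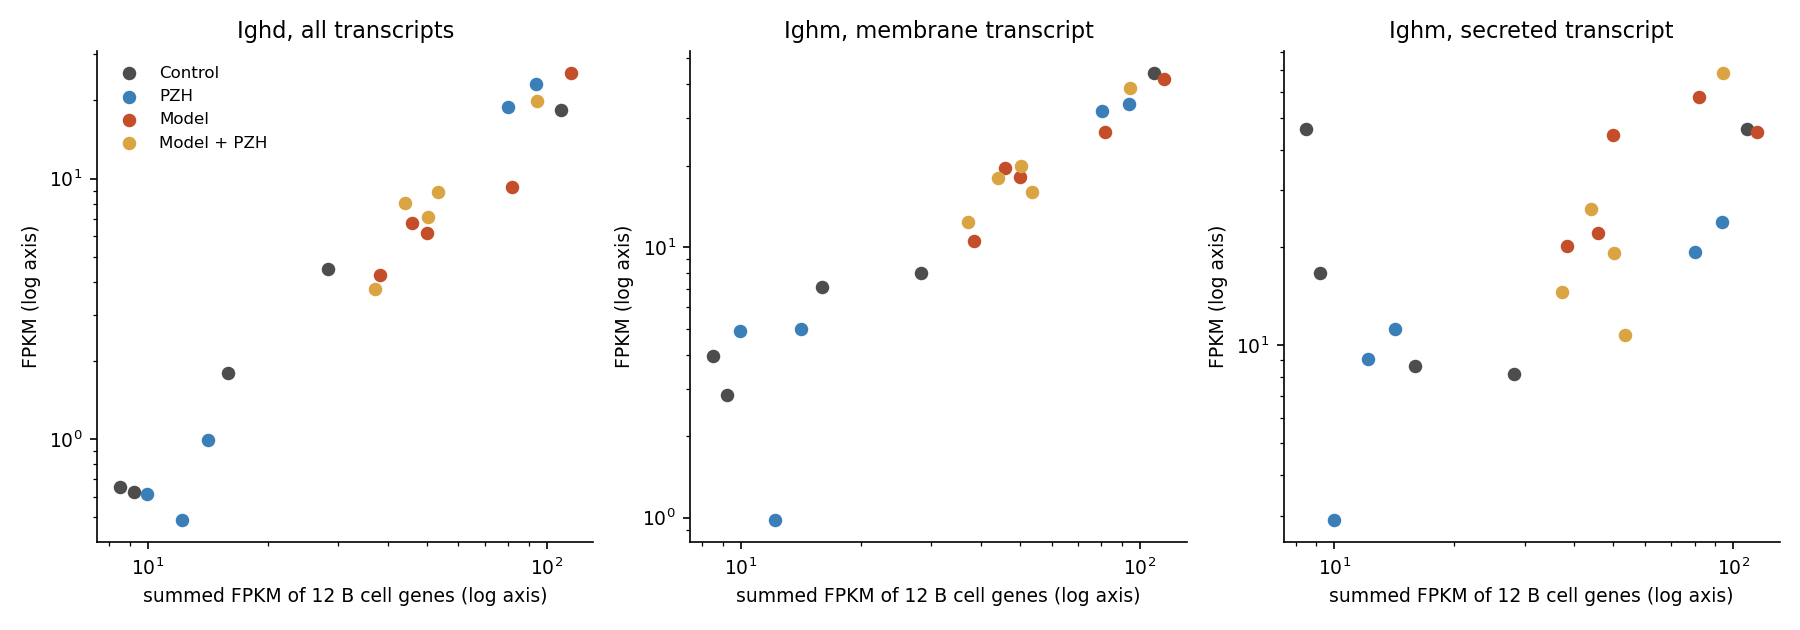
Each point is 1 mouse (Control grey, PZH blue, Model red, Model + PZH yellow), with the summed FPKM of 12 B cell genes on the horizontal axis and the FPKM of Ighd, of the membrane transcript of Ighm or of its secreted transcript on the vertical axis, all logarithmic. Ighd and membrane Ighm are highest in the mice with B cell sums of 80.1 FPKM or more, whereas secreted Ighm at 46.3 FPKM in Control mouse 17 goes with a sum of 8.51 FPKM.

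The transcript forms set these classes apart. The membrane transcript made up 68.6% to 100% of Ighd in the 20 mice, and 7.87% to 62.7% of Ighm. For Igha it was 0.112% to 1.36%, so nearly all Igha was of the secreted form whose tail is printed above, with 1019 to 2163 FPKM in Control and 3170.5 to 7810.3 FPKM in Model mice. For Ighg2c the secreted form made up nearly all of the gene as well, and the membrane transcript was at most 0.811 FPKM in Control, 0.152 FPKM in PZH, 4.31 FPKM in Model and 6.98 FPKM in Model + PZH mice. In Ighm, the membrane transcript was at 43.96 FPKM in Control mouse 37 and 33.8 and 31.9 FPKM in PZH mice 8 and 27, and at 0.979 to 8.01 FPKM in the other 7 mice without AOM/DSS. Secreted Ighm was as high in Control mouse 17 as in Control mouse 37, at 46.3 and 46.1 FPKM, although B cell genes were at the lowest level of all mice in Control mouse 17.

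PZH alone changed none of the 10 genes at the threshold used. Between PZH and Control mice, limma called 0 of the 10 genes, beside 0.00645% of the 15506 genes tested, and 1 of the 10 had an unadjusted P under 0.05, beside 8.84% of genes. That gene was Pigr, with a log2 difference of 0.33 (SE 0.14, 95% confidence interval 0.02 to 0.64, adjusted P = 0.546), and 4 of the 5 PZH mice lay above the highest Control mouse. For Igha the difference was 0.30 (SE 0.22, 95% confidence interval -0.18 to 0.78). For Ighg2c the interval was wide, from -1.13 to 2.00.

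In mice with AOM/DSS, PZH gave no called difference either. Between Model + PZH and Model mice, limma called 0 of the 10 genes, beside 0.00629% of the 15888 genes tested, and 1 had an unadjusted P under 0.05, beside 11.7% of genes. That was Ighg3, with 17.5 ± 6.52 FPKM in Model and 8.76 ± 4.26 FPKM in Model + PZH mice (SD, n = 5 per group) and a log2 difference of -0.97 (SE 0.33, adjusted P = 0.356). For Igha the difference was -0.09 (SE 0.23, 95% confidence interval -0.59 to 0.42), and for Igkc 0.03 (SE 0.24, 95% confidence interval -0.50 to 0.56). For Ighg1 it was -0.79 (SE 0.48, 95% confidence interval -1.86 to 0.27), and for Pigr 0.10 (SE 0.19, 95% confidence interval -0.33 to 0.52). The median of the 10 genes was -0.31, beside -0.04 for all genes tested. The interaction of PZH with AOM/DSS over all 20 mice was called in 0 of the 10 genes by limma, beside 0.0118% of the 16936 genes tested, and 0 had an unadjusted P under 0.05, beside 10.3% of genes. It ranged from -1.04 (Ighg1, SE 0.61, adjusted P = 0.577) to 0.36 (Ighg3, SE 0.80, adjusted P = 0.902), and the value for Ighg3 was -0.16 without Control mice 17 and 50.

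Some genes of plasma cells, the cells that secrete antibody, were also higher in mice with AOM/DSS. Of 14 plasma cell genes, 7 were called higher and 1 lower in Model than in Control mice, with a median log2 difference of 0.69. Among all genes tested, 16.4% were called higher. Mzb1, a chaperone of IgM and IgA assembly, was at 9.83 to 27.5 FPKM in Control and 32.5 to 63.0 FPKM in Model mice (log2 difference 1.32, SE 0.26, adjusted P = 0.00516). Pou2af1, a coactivator of immunoglobulin transcription, was higher by 1.16 (adjusted P = 0.0178), and Xbp1, Irf4, Prdm1, Tent5c and Fkbp11 were higher by 0.45 to 1.12. Cd38 fell by 1.19 (adjusted P = 0.0396). Sdc1, Txndc5, Ell2, Derl3 and Slamf7 were not called (limma adjusted P = 0.0522 to 0.923). Cells other than plasma cells can also express genes of this list, Cd38 among them. Tnfrsf17, the plasma cell receptor BCMA, was at 1.74 ± 0.996 FPKM in Control and 3.13 ± 1.61 FPKM in Model mice (SD, n = 5 per group) and was not called (adjusted P = 0.196). In Model + PZH mice, Mzb1 was higher than in Control (1.06, adjusted P = 0.0439) and in PZH mice (0.82, adjusted P = 0.0126), and Irf4 was higher than in Control mice (0.81, adjusted P = 0.0196). Without Control mice 17 and 50, no gene of any list described here was called by limma between Model + PZH and Control mice. The summed level of the 14 genes was 196 to 371 FPKM in Control, 215 to 357 FPKM in PZH, 315 to 535 FPKM in Model and 345 to 457 FPKM in Model + PZH mice.

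Some marker genes of other cell types also differed in the same comparison. Of 7 smooth muscle genes tested all 7 were lower in Model than in Control mice, led by Myh11 (log2 difference -1.49), and their list summed to 2294 to 5279 FPKM in Control and 1020 to 1783 FPKM in Model mice. Of 8 T cell genes 5 were higher, led by Trac (1.31), and of 9 myeloid genes 6, led by S100a9 (5.29) and S100a8 (5.21), which encode neutrophil proteins. Of all 15812 genes tested, 16.4% were called higher and 1143 genes were called lower. The T cell list summed to 6.39 to 22.3 FPKM in Control and 18.1 to 37.6 FPKM in Model mice, and the myeloid list to 287 to 732 and 562 to 1078 FPKM. The part of a different makeup of the tissue in the immunoglobulin values was not tested.

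Signals that attract and instruct IgA plasma cells did not all move with Igha. Of 21 tested genes for IgA induction and homing, 6 were called higher and 1 lower in Model than in Control mice. Among all genes tested, 16.4% were called higher and 23.6% in either direction. Ccl28, the epithelial chemokine that attracts IgA plasma cells to the colon, was at 52.2 to 73.4 FPKM in Control and 26.9 to 36.1 FPKM in Model mice (log2 difference -0.99, SE 0.12, adjusted P = 0.000274), without overlap. It was at 63.9 to 78.4 FPKM in PZH mice and 22.6 to 63.0 FPKM in Model + PZH mice. Its receptor Ccr10 was not called, with 2.67 ± 1.00 FPKM in Control and 3.43 ± 1.01 FPKM in Model mice (SD, n = 5 per group, adjusted P = 0.395). Higher in Model mice were Ltb (1.77), a cytokine of lymphoid tissue, Itgb7 (1.21) and Madcam1 (0.89), a gut homing integrin chain and its ligand, and Tgfb1 (0.83), which drives the switch to IgA, together with Tgfbr2 and Ccr9. Ccr9 was at most 0.299 FPKM in Control mice and passed the filter only through the Model mice, so its call follows in part from the filter. No gene of this list was called by limma between Model + PZH and Control or PZH mice. Of the 20 tested in each, 8 (7 higher, 1 lower) and 7 (6 higher, 1 lower) had an unadjusted limma P under 0.05. That stands beside 3256 of 15616 and 3268 of 15636 genes tested.

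Some receptors for the Fc part of antibodies were also higher. Of 8 tested, 5 were called higher and 1 lower in Model than in Control mice, beside 16.4% of all genes tested called higher. Fcgr3, an activating receptor for IgG, was at 7.24 to 15.8 FPKM in Control and 20.3 to 29.3 FPKM in Model mice (log2 difference 1.09, adjusted P = 0.00283). Fcer1g, the signalling chain shared by such receptors, was higher by 0.84 (adjusted P = 0.00909), and Fcer1a, a chain of the IgE receptor of mast cells, by 1.56 (adjusted P = 0.00500). Fcgrt, the neonatal receptor that moves IgG through cells, fell by 0.58 (adjusted P = 0.0170). In Model + PZH against PZH mice 5 of 7 were called higher, beside 1.74% of all genes tested. Among them were Fcgr4 (1.95, adjusted P = 0.0344), Fcer1g (1.16, adjusted P = 0.0182) and Fcgr3 (1.10, adjusted P = 0.0198). In Model + PZH against Control mice it was 3 of 7, beside 1.55% of genes, including Fcgr2b (1.01, adjusted P = 0.0392). These 3 calls were lost without Control mice 17 and 50.

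The variable gene segments, which are joined to these constant genes, were higher as a broad set. Of 86 heavy chain variable genes (Ighv) tested, 44 were called higher in Model than in Control mice, with a median log2 difference of 1.88, and of 84 κ variable genes (Igkv) 39, with a median of 1.73. None of either class was called lower, and 16.4% of all genes tested were called higher. Between 68 and 80 Ighv genes reached 1 FPKM in a Control mouse and between 85 and 88 in a Model mouse. The most abundant Ighv gene held 4.86% to 15.4% of the Ighv total in 18 mice. The exceptions were PZH mouse 53, with 35.2% in Ighv5-17 (900.2 FPKM), and PZH mouse 8, with 29.3% in Ighv1-53 (462 FPKM). In PZH mouse 53 the λ constant gene Iglc3 was at 579 FPKM, and λ made up 22.97% of the light chain constant total, against 0.758% to 5.67% in the other 19 mice. Iglc1 and Iglc3 were each listed near 0 in some mice and far higher in others of the same group. The cause was not tested, and the split of reads among Iglc1, Iglc2 and Iglc3 is uncertain. With that limit, Iglc2 was higher in Model than in Control mice (38.6 ± 11.995 against 18.3 ± 5.31 FPKM, SD, n = 5 per group, adjusted P = 0.0134), and Iglc1 was listed below 0.1 FPKM in 3 Control mice, 1 PZH mouse, 4 Model mice and 1 Model + PZH mouse.

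Over the 20 mice, the genes outside the immunoglobulin loci whose log2(FPKM + 1) followed Igha most closely were Tmem154 (Pearson's r 0.95), Il18r1 (0.95), Mzb1 (0.93), Bgn (0.92) and Khdc1a (0.89). After removing group means the values were 0.79, 0.81, 0.71, 0.63 and 0.20. Among those for Ighg1 were Chsy1 (0.91), Icam1 (0.90), Smim3 (0.89) and Prex1 (0.89). For Pigr they were Rasd2 (0.93), Slc10a5 (0.91), Cacna2d2 (0.91), Pcx (0.90) and Cyp2d26 (0.89), which remained between 0.75 and 0.88 after removing group means. These are the highest of all genes tested, given as a description, and mice of a group share their treatment.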

How the data were processed

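Total RNA of colon was depleted of rRNA and sequenced. The authors filtered the reads, aligned them to mm10 with HISAT2 v2.1.0 and assembled and quantified transcripts with StringTie v1.3.3b. The values deposited by the authors are FPKM per transcript, without counts. The RNA extraction note in the labels names another tissue, the sample labels colon. Of 118434 transcripts, 96182 had Ensembl identifiers. The 96032 found in GENCODE M21 (GRCm38) were summed per gene, and 150 others and 22252 assembled ones were left out. Immunoglobulin genes share similar sequence, so the assignment of reads among them is uncertain.

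Genes reaching 0.5 FPKM in 5 or more mice out of the 10 compared were kept, and log2(FPKM + 1) was fitted with limma 3.58.1 in R 4.3.3, with an intensity trend, two-sided, no covariates and Benjamini-Hochberg adjustment. The interaction used 20 mice. FPKM are no counts, so no count model was used, and 40.7% to 45.2% of low values fell within 0.02 of a whole step, so the depth is approximate. Pigr relative to epithelial genes was compared with exact permutation tests. The scripts were tested on simulated data. Figures and tables used Python 3.11.15.

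The genes and the lists (plasma cell, B cell, IgA induction and homing, immunoglobulin receptors, other immunoglobulin constant genes, transcytosis and regulators, colon epithelium, colonocyte, smooth muscle, T cell, myeloid, squamous epithelium) were chosen with earlier results of these data known. Named are the 10 genes, up to 3 genes of each list with the largest called difference per comparison, and the 5 genes most like Igha, Ighg1 and Pigr. Of the genes under this rule, 2 are not reported here. Other genes were named after their values were seen. The labels number the mice, and no batches are given.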

Additional observations from a re-analysis of the deposited data

Results flagged for a closer look

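Within each group of 5 mice, the lowest and the highest value of each of the 10 genes was compared with its nearest neighbour by Dixon's criterion. Of 40 group values 2 stood apart, and chance alone would give about 1 in 20, which is 2. Jchain in Model mouse 44 was at 11.5 FPKM, far below the other 4 Model mice at 874 to 2171 FPKM, while its Igha was at 3523 FPKM. Ighg1 in PZH mouse 27 was at 11.3 FPKM, below the other 4 PZH mice at 28.0 to 38.5 FPKM.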

How the results depend on the processing

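Of the results of the 10 genes under the alternatives that kept all mice or left out a named pair, 13 changed sign, 12 fell short of the threshold, 4 newly passed it and the others kept their direction and their side of the threshold. None of the 13 that changed sign was called under either setting, and where a cause is not given below, the cause was not tested. No paired analysis was possible because the mouse numbers are not shared between groups.

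Scaling moved the balance of calls. Between Model and Control 69.4% of called genes were higher as deposited, 54.9% with median-of-ratios scaling and 81.4% when scaled to genes other than immunoglobulin genes, and between Model + PZH and Control 64.0%, 49.9% and 80.2%. The median over all genes between Model and Control was 0.09, 0.0069 and 0.19 in that order. The called directions of the 10 genes were the same under these scalings, and Ighg3 fell short between Model and Control with median-of-ratios scaling (adjusted P = 0.0650).

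The rRNA class below means a high or low listed level of AY036118, described under the other observations. Genes called between PZH and Control numbered 0 with all 20 mice in one fit and 2 with the rRNA class as a covariate. Between Model + PZH and Model they numbered 0 without the filter, 76 with 20 mice, 2 with quality weights and 0 without Model mouse 44 and Model + PZH mouse 13. Between Model + PZH and Control they numbered 98 without the filter, 1533 with 20 mice, 29 without Control mice 17 and 50 and 74 with the rRNA class, and of the 10 genes 2 were called without the filter and 0 without Control mice 17 and 50. Between Model + PZH and PZH they numbered 90 without the filter, 1043 with 20 mice and 181 with the rRNA class. For the interaction they numbered 0 with a pseudocount of 0.1, 0 without Control mice 17 and 50 and 0 without mice 44 and 13. The settings with the rRNA class and without named pairs of mice were chosen after seeing the data.

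Relative to epithelial genes, Pigr differed by 0.26 (PZH against Control), -0.21 (Model + PZH against Control) and -0.47 (Model + PZH against PZH) without list genes under 0.5 FPKM, by -0.32 (Model + PZH against Control) and 0.059 (Model + PZH against Model) with the list's median, and by -0.67 (Model + PZH against Control) without Control mice 17 and 50. Of these values only that between PZH and Control passed the threshold.

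Signs turned between PZH and Control for Ighd (-0.51 without Control mice 17 and 50, -1.04 with the rRNA class), Ighg2c (-0.75 with the rRNA class) and Igkc (-0.15 without Control mice 17 and 50). They turned between Model + PZH and Model for Igha (0.0068) and Ighd (0.037) with the rRNA class, and for Ighg2c (0.033) and Igkc (-0.015) without mice 44 and 13. In the interaction they turned without Control mice 17 and 50 for Ighd (0.48), Ighg2b (0.0031), Ighg3 (-0.16) and Igkc (0.19), and without mice 44 and 13 for Ighg2b (0.037).

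Leaving out 1 mouse at a time gave 1 to 2 called genes between PZH and Control, 2516 to 3562 between Model and Control, 1 to 808 between Model + PZH and Model (808 without Model + PZH mouse 35), 78 to 495 between Model + PZH and Control, 54 to 423 between Model + PZH and PZH and 0 to 476 for the interaction. Of the 10 genes, 5 to 8, 3 to 4 and 2 to 5 were called in the comparisons of mice with and without AOM/DSS, in the order Model against Control, Model + PZH against Control and Model + PZH against PZH. Pigr relative to epithelial genes ranged from -1.06 to -0.52 (Model against Control), -0.33 to 0.21 (Model + PZH against Model), -0.99 to -0.66 (Model + PZH against Control), -1.15 to -0.82 (Model + PZH against PZH) and 0.02 to 0.25 (PZH against Control). Signs turned between PZH and Control for Ighd (-0.29 to 0.89), Ighg2b (-0.59 to 0.064), Ighg2c (-0.036 to 0.91), Igkc (-0.059 to 0.21) and Jchain (-0.43 to 0.10). They turned between Model + PZH and Model for Igha (-0.22 to 0.11), Ighd (-0.32 to 0.34), Igkc (-0.089 to 0.25), Jchain (-1.83 to 0.21) and Pigr (-0.026 to 0.21). In the interaction they turned for Ighm (-0.32 to 0.42), Ighd (-0.92 to 0.26), Ighg2b (-0.54 to 0.11), Igkc (-0.20 to 0.14) and Jchain (-1.66 to 0.39). With 5 mice per group and no counts, differences of genes near 1 FPKM are imprecise.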

Other observations

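AY036118, a gene taken here as a marker of residual rRNA, split the mice. It was at 1115 to 2341 FPKM in 11 mice and at 0.182 to 1.53 FPKM in 9. The high values were found in 4 Control, 1 PZH, 4 Model and 2 Model + PZH mice. The libraries were depleted of rRNA, and the labels name no batch. Whether AY036118 measures the rRNA left in a library was not tested. With its high or low class as a covariate, the 10 genes kept 5 calls between Model and Control (all but Ighg3). They kept 3 between Model + PZH and Control (all but Ighg2b) and 4 between Model + PZH and PZH mice.

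Ighe, the IgE heavy chain gene, was at 0.0419 to 0.703 FPKM in Control and 0.122 to 0.517 FPKM in Model mice and did not pass the filter in that comparison. Fcer1a, a chain of its receptor, was at 0 to 0.306 FPKM in Control and 0.782 to 5.24 FPKM in Model mice. It passed the filter only through the Model mice.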
